A study of Mus musculus with 8 samples.

Results

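Interferons are secreted proteins that warn cells of infection and set the level of a large group of antiviral genes. Type I interferons, such as interferon beta, bind a receptor made of the chains IFNAR1 and IFNAR2, which carry the kinases TYK2 and JAK1. Type II interferon, interferon gamma, binds IFNGR1 and IFNGR2, which carry JAK1 and JAK2. The kinases phosphorylate STAT factors, which enter the nucleus and switch on interferon-stimulated genes. The suppressors of cytokine signaling SOCS1 and SOCS3 are themselves switched on by STAT factors and shut the kinases off. In osteoclasts, the multinucleated cells that resorb bone, this pathway is known as a brake: RANKL, the cytokine that drives osteoclast formation, induces a little interferon beta in the precursors, which lowers c-Fos protein and limits differentiation, and interferon gamma also blocks osteoclast formation.

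The 10 genes described here are the ligand gene Ifnb1, the receptor genes Ifnar1, Ifnar2, Ifngr1 and Ifngr2, the kinase genes Jak1, Jak2 and Tyk2, and the inhibitor genes Socs1 and Socs3. They were taken by symbol from a table of 46517 genes, through the Ensembl identifiers of that table, and all 10 were found. The question was whether the message of the ligand, of a receptor chain, of a kinase or of an inhibitor differed between Elmo1-/- and Elmo1+/- osteoclasts. Elmo1 encodes a protein that works with DOCK proteins to activate the small GTPase Rac. The study grew osteoclasts from the femur marrow of 4 mice labelled global Elmo1-/- and of 4 Elmo1+/- mice. The Elmo1+/- mice keep an intact copy of the gene and are titled WT in the labels. Mice of both genotypes were 6 to 8 weeks old, and the labels leave out their sex. Marrow cells were kept for 16 h in dishes, and the cells that stayed in suspension were grown with 10% L929 cell medium, which supplies M-CSF, and with 50 ng/ml GST-RANKL for 7 days. The labels name both agents for these 7 days, while the general culture methods of the study put a step in L929 medium alone before them, after which the attached cells were collected and replated with GST-RANKL. Their mRNA was sequenced as 75 bp read pairs, with 1 library per mouse. The cultures came from 2 experiments with 2 mice of each genotype apiece, and the sources used here do not say which mice went together.

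The libraries held between 20905502 and 40846651 reads on genes. Values are normalized counts, that is, reads on a gene divided by 1 size factor per library. Elmo1 itself was at 274, 287, 316 and 291 normalized counts in the 4 Elmo1-/- libraries. It was at 1528, 1423, 1769 and 1651 in the 4 Elmo1+/- libraries, so each library matched its genotype label. Its message was thus lower but not absent in Elmo1-/- libraries, at 0.184-fold, and the source of the remaining reads was not tested. The 12 osteoclast markers examined, among them Ctsk, the collagen-degrading protease cathepsin K, and Mmp9, a matrix metalloproteinase, were all expressed, and macrophage markers such as Adgre1 were high as well, at a mean of 98351 and 97569 normalized counts. The libraries numbered 1 and 2 in each genotype stood apart from those numbered 3 and 4: all 12 osteoclast markers were lower in every library numbered 1 or 2 than in any numbered 3 or 4, by a median log2 difference of 1.17. In bulk RNA, fewer cells of a type and less RNA per cell cannot be told apart.

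None of the receptor, kinase or inhibitor genes differed between the genotypes beyond the spread between mice. Of the 10 genes, 9 reached 10 normalized counts in 4 libraries or more and were tested, and Ifnb1 did not. In the limma fit across 14139 genes, 0 of the 9 passed an adjusted p of 0.05, beside a background of 0.00707% of all tested genes, and the adjusted p was 1.00 for each of the 9. None had an unadjusted p under 0.05, against 0.941% of all tested genes, and edgeR and DESeq2 on the recovered reads also gave 0 of 9 at either threshold. None had genotypes whose values did not overlap, against 0.941% of all tested genes, 0.502% higher and 0.439% lower in Elmo1-/-. The log2 fold change, written as Elmo1-/- relative to Elmo1+/-, was above 0 for 7 of the 9, against 48.4% of all tested genes, and its median was 0.054, against -0.0031 for all tested genes. Without Elmo1-/- mouse 1, 4 of the 9 lay above 0, and without Elmo1+/- mouse 4 also 4. The estimates ran from -0.030 for Jak1 to 0.10 for Ifnar1, and over the 9 genes the 95% intervals reached from -0.65 to 0.81, both bounds belonging to Ifngr1. The exact two-sided permutation test over the 70 arrangements of 4 and 4 mice cannot go below p = 0.0286, and the smallest p among the 9 genes was 0.0857.

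**Figure D1:**
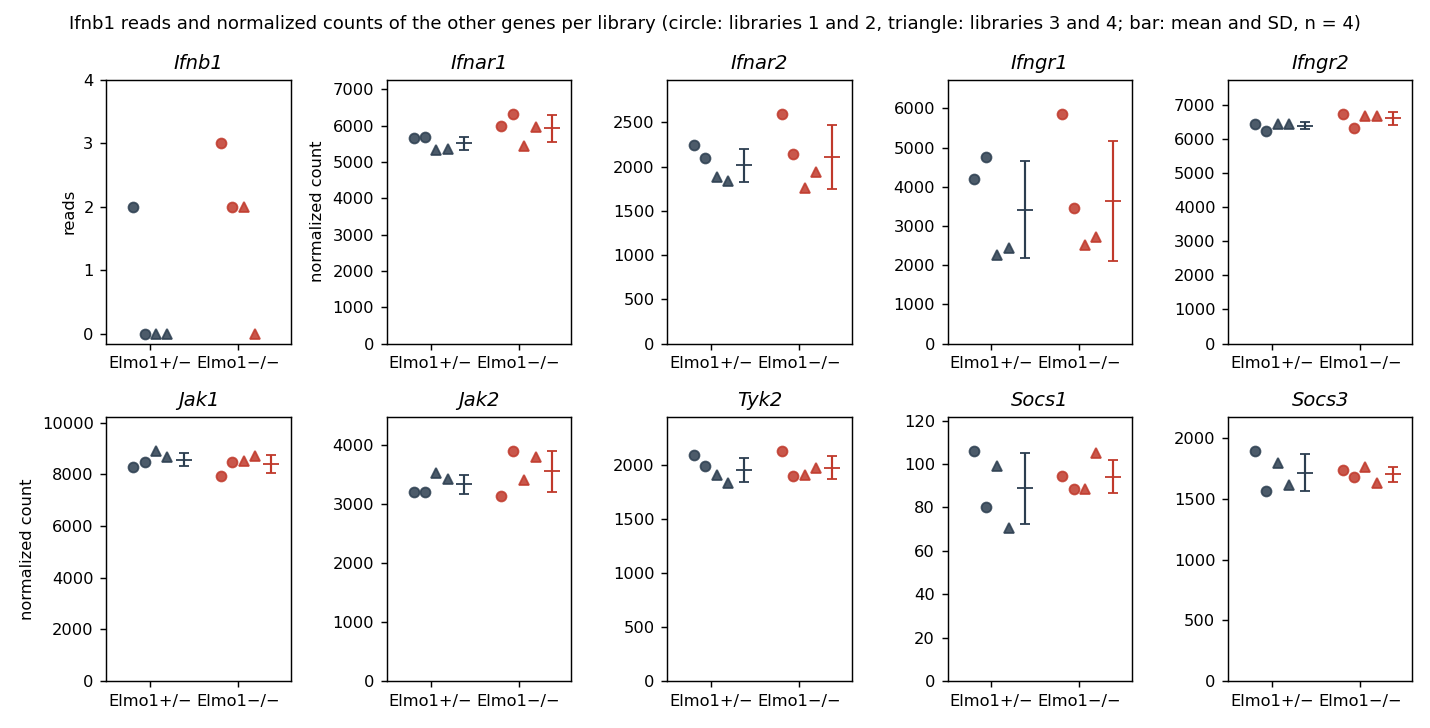
Reads of Ifnb1 and normalized counts of the other 9 genes (y axes, each from 0) in the 4 Elmo1+/- and the 4 Elmo1-/- libraries, with circles for libraries numbered 1 and 2, triangles for those numbered 3 and 4, and bars for the mean and SD (n = 4). The genotypes overlap in every panel, Ifngr2 lies between 6242 and 6735 in all 8 libraries, and Ifngr1 is higher in the circles than in the triangles of both genotypes.

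The message of interferon beta was at the edge of detection in both genotypes. Ifnb1 (ENSMUSG00000048806), an intronless gene at chr4:88522025-88522774 on the minus strand (GRCm38), had 3, 2, 2 and 0 reads in Elmo1-/- mice 1 to 4, and 2, 0, 0 and 0 reads in Elmo1+/- mice 1 to 4. A read was therefore seen in 3 of 4 Elmo1-/- and in 1 of 4 Elmo1+/- libraries, and the values of the genotypes overlapped. In all, 7 of 139350644 reads in Elmo1-/- and 2 of 121654200 reads in Elmo1+/- libraries fell on Ifnb1, which is 0.0502 and 0.0164 CPM. Their ratio was 3.06, with an exact 95% interval from 0.582 to 30.1 that covers counting error only. A count of 0 allows up to 3 reads, that is, 0.144 CPM in the smallest library and 0.0734 CPM in the largest, so a difference at this level was not detectable. On the mean log2(normalized count + 1) the exact two-sided permutation test over mice gave p = 0.257.

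The upstream sequence of Ifnb1 is shown because this is the region through which the gene is known to be switched on, by NF-kB and IRF factors. It is the 250 bases before the start of the gene in RefSeq, chr4:88522795-88523044 on the minus strand (GRCm38.p6), written 5′ to 3′, with capitals marking the only match to an NF-kB-type pattern, GGGA and TTCC with any 2 bases between them.
Ifnb1 upstream: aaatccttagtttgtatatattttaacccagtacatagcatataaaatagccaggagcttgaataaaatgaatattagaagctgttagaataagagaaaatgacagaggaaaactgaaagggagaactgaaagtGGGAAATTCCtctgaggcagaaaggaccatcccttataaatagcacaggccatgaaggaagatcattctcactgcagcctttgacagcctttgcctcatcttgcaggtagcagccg
The match lies 116 to 107 bases before that start. The pattern, searched on both strands, was found in 1.21% of 32851 windows of this length in the RefSeq promoter table. Neither the GAS-type pattern TTCNNNGAA, the letters STAT dimers are known to bind, nor an ISRE-type pattern, GAAA and GAAA with any 2 bases between them, known from interferon-stimulated genes, matched in this window of Ifnb1. The window does hold gaaaactgaaa, whose spacing is wider than that pattern allows. The lack of a match therefore does not mean the lack of a site for IRF factors.

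The other interferon genes were also at or close to 0. Of 20 further ligand genes (14 Ifna genes, counting Ifnab, with Ifne, Ifnk, Ifnz, Ifnl2, Ifnl3 and Ifng), 17 were listed at 0 in all 8 libraries, and none reached the level for testing. Ifnab had 1 read, in Elmo1+/- mouse 4. Ifnk, an interferon gene known from skin, had 2 reads in each genotype. Ifng, which T and NK cells are known to make, had 3 reads over Elmo1-/- and 1 read over Elmo1+/- libraries. The Ifna genes are near-identical copies of each other, so reads that fit several of them may not have been counted on any, and their values are uncertain.

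Markers of cells that are known to make much interferon were scarce. Of 5 plasmacytoid dendritic cell markers, Klk1 was at 0 in every library, Siglech and Pacsin1 were below the level for testing, and only Ccr9 and Cox6a2 were tested. Their sum over the 5 genes lay between 59.1 and 89.9 normalized counts in Elmo1-/- and between 64.0 and 97.5 in Elmo1+/- libraries. Of 8 T and NK cell markers, Cd3g and Ncr1 were at 0 in every library, and only Cd4, which macrophages can also carry, was tested. The summed level of these 8 lay between 66.8 and 237 in Elmo1-/- and between 46.6 and 121 in Elmo1+/- libraries, nearly all of it Cd4. Of 5 B cell markers 1 was tested, Cd79b, while all 8 neutrophil markers and 4 of 6 stromal markers were, with summed levels of 10374 to 22627 and 936 to 1636 in Elmo1-/- and of 12320.2 to 21528 and 979 to 1545 in Elmo1+/- libraries. None of these markers passed the test between genotypes, and the part of such cells in the values of the interferon genes was not tested.

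The type I receptor chains were well expressed in both genotypes. Ifnar1 (ENSMUSG00000022967, chr16:91485238-91507441, plus strand) was at 5982, 6320.4, 5438 and 5978 normalized counts in Elmo1-/- mice 1 to 4 and at 5662, 5681, 5345 and 5369 in Elmo1+/- mice 1 to 4. It was higher in Elmo1-/- in each of the 4 same-numbered pairs, which 4.7% of all tested genes also were, with 4.8% lower in each pair, but Elmo1-/- mouse 3 lay within the Elmo1+/- range. The means were 5929.6 ± 365 and 5514 ± 182 (SD, n = 4). Its log2 fold change was 0.10 (SE 0.068, 95% interval -0.050 to 0.26), or 1.07-fold with an interval from 0.966 to 1.19. The exact permutation p was 0.0857. Without Elmo1-/- mouse 3 the genotypes of Ifnar1 did not overlap, as was then the case for 2.57% of all tested genes, and its adjusted p lay between 0.936 and 1.00 over the 18 alternative settings, edgeR and DESeq2 included.

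Ifnar2 (ENSMUSG00000022971, chr16:91372783-91405589, plus strand) encodes both the signaling chain and, by alternative splicing, a soluble form, which counts per gene do not separate. It was at 2594, 2147, 1755 and 1936 in Elmo1-/- and at 2245, 2096, 1881 and 1842 in Elmo1+/- mice 1 to 4. The highest value was in Elmo1-/- mouse 1 and the lowest in Elmo1-/- mouse 3, so the spread within Elmo1-/- exceeded that between genotypes. That spread followed the library sets, since libraries 1 and 2 were all above libraries 3 and 4. The log2 fold change was 0.054 (SE 0.12, 95% interval -0.23 to 0.34, exact permutation p = 0.743), and it became -0.051 without Elmo1-/- mouse 1. With all mice and the replicate number as a block, the SE was 0.067 and the 95% interval -0.096 to 0.20. Ifnar2 shares 315 exon bases with Gm21970, a gene at a mean of only 0.119 normalized counts.

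The chains of the interferon gamma receptor lay at opposite ends of the spread: of the 9 tested genes, Ifngr2 varied least over the 8 libraries and Ifngr1 most. Ifngr2 (ENSMUSG00000022965, chr16:91547072-91565623, plus strand), the signaling chain, was at 6735, 6341, 6690.1 and 6679 in Elmo1-/- and at 6445, 6242, 6458 and 6445 in Elmo1+/- mice 1 to 4. Its coefficient of variation over the 8 libraries was 2.75%, against a median of 13.1% over all tested genes. In both genotypes mouse 2 was the lowest and the other 3 mice lay close together. It was higher in Elmo1-/- in each of the 4 same-numbered pairs, with a log2 fold change of 0.047 (SE 0.057, 95% interval -0.082 to 0.18, exact permutation p = 0.114), or 1.03-fold. Without Elmo1-/- mouse 2 its genotypes did not overlap, as was then the case for 1.71% of all tested genes.

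Ifngr1 (ENSMUSG00000020009, chr10:19591949-19610229, plus strand), the chain that binds interferon gamma, was at 5853, 3466, 2514 and 2717 in Elmo1-/- and at 4208, 4753, 2270.3 and 2449 in Elmo1+/- mice 1 to 4. The 4 libraries numbered 1 and 2 were all above the 4 numbered 3 and 4, while each genotype held both high and low values. The means of the genotypes were 3638 ± 1533 and 3420.1 ± 1247 (SD, n = 4), and the log2 fold change was 0.079 (SE 0.32, 95% interval -0.65 to 0.81, exact permutation p = 0.8286). In fold the interval ran from 0.637 to 1.75, the widest of the 9 genes, so this fit left differences within those bounds open. The sign changed when Elmo1-/- mouse 1 was left out (-0.18) and also without Elmo1+/- mouse 3 (-0.093) or mouse 4 (-0.056). A fit with all mice and the replicate number as a block gave an SE of 0.14 and a narrower 95% interval, from -0.27 to 0.43.

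**Figure D2:**
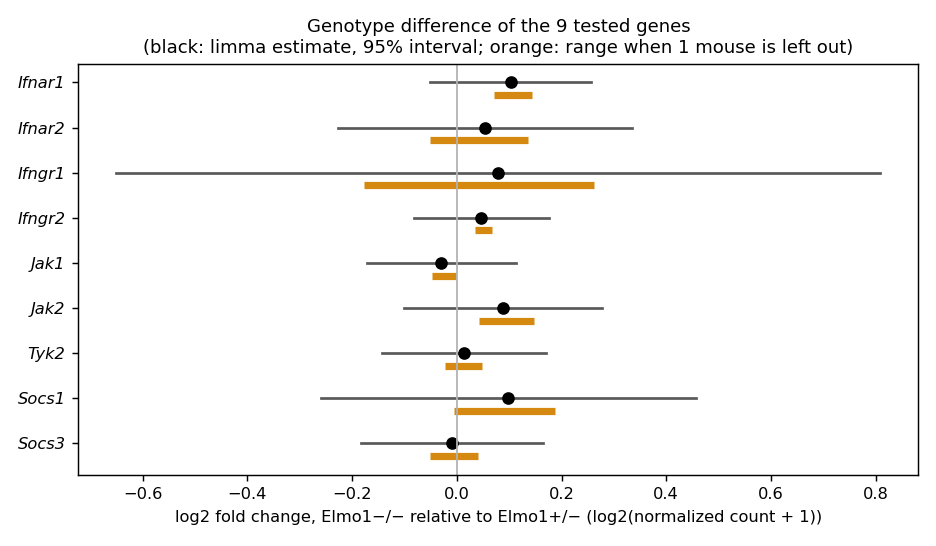
The log2 fold change of each tested gene (x axis, Elmo1-/- relative to Elmo1+/-, on log2(normalized count + 1)), with the limma estimate and its 95% interval in black and the range over the 8 fits that leave out 1 mouse in orange. The intervals come from the fit without a replicate block. Each of the 9 black intervals crosses 0, and the interval of Ifngr1 is the widest, from -0.65 to 0.81.

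Among the kinases, Jak1 was the highest per kb of exon and varied least between mice. Jak1 (ENSMUSG00000028530, chr4:101152367-101265282, minus strand), which serves both receptors, was at 7919, 8455, 8506 and 8700.3 in Elmo1-/- and at 8276, 8456, 8879 and 8659 in Elmo1+/- mice 1 to 4. Its lowest value was in Elmo1-/- mouse 1, and the other 7 libraries lay between 8276 and 8879. The log2 fold change was -0.030 (SE 0.063, 95% interval -0.17 to 0.11, exact permutation p = 0.543).

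Jak2 (ENSMUSG00000024789, chr19:29251828-29313080, plus strand), the partner of IFNGR2, was at 3132, 3888, 3401 and 3788 in Elmo1-/- and at 3196, 3195, 3520.5 and 3419 in Elmo1+/- mice 1 to 4. Elmo1-/- mice 2 and 4 were above every Elmo1+/- library and Elmo1-/- mouse 1 was below them all. Its log2 fold change was 0.088 (SE 0.083, 95% interval -0.10 to 0.28, exact permutation p = 0.371). Tyk2 (ENSMUSG00000032175, chr9:21104068-21131243, minus strand), the partner of IFNAR1, was at 2128, 1896, 1906 and 1972 in Elmo1-/- and at 2099, 1991, 1906 and 1832 in Elmo1+/- mice 1 to 4. All 8 values lay within a narrow band, and the log2 fold change was 0.014 (SE 0.069, 95% interval -0.14 to 0.17, exact permutation p = 0.800). Tyk2 shares 554 exon bases with the antisense gene 1700084C06Rik, which was at a mean of 3.28 normalized counts, and the sources used here do not say whether reads were counted by strand.

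Both feedback inhibitors were expressed, Socs3 far above Socs1, and neither differed between the genotypes beyond the spread. SOCS1 and SOCS3 bind JAK kinases and the receptors they sit on. Socs1 (ENSMUSG00000038037, chr16:10782240-10785536, minus strand), known as the main inhibitor of interferon gamma signaling, was at 94.6, 88.6, 88.5 and 105 in Elmo1-/- and at 106, 80.1, 99.0 and 70.4 in Elmo1+/- mice 1 to 4. Both the highest and the lowest value were in Elmo1+/- mice. The means were 94.2 ± 7.77 and 88.8 ± 16.4 (SD, n = 4), and the log2 fold change was 0.10 (SE 0.16, 95% interval -0.26 to 0.46, exact permutation p = 0.571). Its 65 to 135 reads per library made it the least deeply sampled of the 9 tested genes.

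Socs3 (ENSMUSG00000053113, chr11:117966079-117970047, minus strand), known as the feedback inhibitor of the IL-6 and G-CSF receptors, was at 1739.7, 1683, 1761 and 1629 in Elmo1-/- and at 1893, 1564, 1799.8 and 1614 in Elmo1+/- mice 1 to 4. The Elmo1-/- values all lay inside the Elmo1+/- range. The log2 fold change was -0.0084 (SE 0.077, 95% interval -0.18 to 0.17, exact permutation p = 0.943), the closest to 0 of the 9 genes.

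The upstream sequences of the 2 inhibitor genes are shown because their messages are known targets of the STAT and IRF factors that the receptors activate. The sequences can so be set beside the levels. Each is the 250 bases before the RefSeq start of the gene on the minus strand (GRCm38.p6), chr16:10785537-10785786 for Socs1 and chr11:117969367-117969616 for Socs3, written 5′ to 3′, with matches to the searched patterns in capitals.
Socs1 upstream: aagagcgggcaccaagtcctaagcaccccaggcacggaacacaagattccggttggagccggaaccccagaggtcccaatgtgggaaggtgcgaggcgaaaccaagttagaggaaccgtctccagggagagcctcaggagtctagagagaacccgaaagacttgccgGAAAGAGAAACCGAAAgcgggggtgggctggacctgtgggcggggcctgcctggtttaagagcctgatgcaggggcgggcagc
Socs3 upstream: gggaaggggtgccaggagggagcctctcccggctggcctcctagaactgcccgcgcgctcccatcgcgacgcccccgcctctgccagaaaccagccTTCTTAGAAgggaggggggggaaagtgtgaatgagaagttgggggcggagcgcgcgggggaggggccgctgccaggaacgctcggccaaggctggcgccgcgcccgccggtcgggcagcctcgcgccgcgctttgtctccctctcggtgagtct
The capitals in Socs1 mark 2 overlapping matches to the ISRE-type pattern, 83 to 74 and 77 to 68 bases before the start. The capitals in Socs3 mark 1 match to the GAS-type pattern TTCNNNGAA, 154 to 146 bases before the start. Of all 32851 windows, 2.98% held the ISRE-type pattern and 7.02% the GAS-type pattern on either strand. Over the windows of all 10 genes, the GAS-type pattern was found in Socs3 and Ifnar2, the ISRE-type pattern in Socs1, and the NF-kB-type pattern in Ifnb1 and Ifngr2, and 5 genes held none of the 3. In GENCODE the first coding transcript of Socs3 starts 180 bases downstream of the RefSeq start and that of Ifnb1 20 bases downstream. The GENCODE gene of Socs3 also reaches further upstream, to chr11:117970047, so the Socs3 window lies inside that gene. Distances thus depend on the annotation. A match describes letters in the window and not a bound site.

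Levels of different genes can be compared only per length of transcript, here as normalized counts per kb of annotated exon. In that unit and over the 8 libraries, Ifngr2 was highest at 1727 ± 47.4 (SD), followed by Ifngr1 at 1239 ± 456, Jak1 at 1174 ± 40.4 and Ifnar1 at 963 ± 58.5. Next came Jak2 at 684 ± 55.4, Ifnar2 at 619 ± 81.6, Socs3 at 592 ± 37.6 and Tyk2 at 286 ± 15.002. Socs1 was at 31.5 ± 4.199 and Ifnb1 at most 3.78 in any library. The ranges of neighbours in this order overlapped for Ifngr2 and Ifngr1, Ifngr1 and Jak1, Jak2 and Ifnar2, and Ifnar2 and Socs3, and they did not overlap for the other neighbours. Among 14096 tested genes with an annotated length, the level of Ifngr2 was at percentile 92.6, that of Tyk2 at 64.9 and that of Socs1 at 21.7. With the longest transcript in place of all exons, Ifngr2 was at 1754, Jak1 at 1729, Ifngr1 at 1671 and Ifnar1 at 1464, so that Jak1 and Ifngr1 changed places and the receptor chains kept their order. Tyk2 was then at 407 and Socs3 at 670.3.

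**Figure D3:**
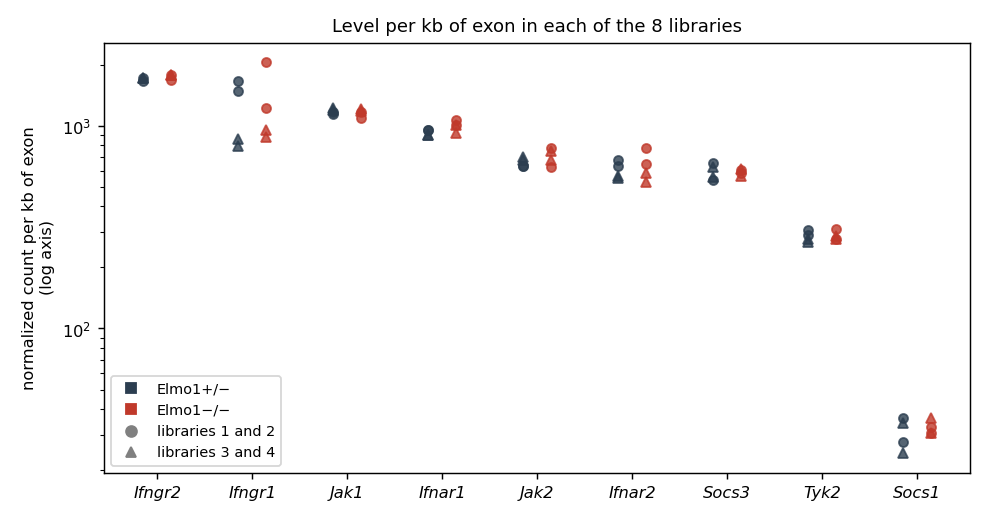
Normalized count per kb of annotated exon (y axis, log scale) of the 9 tested genes in each library, in order of their mean, with Elmo1+/- in dark and Elmo1-/- in red and with circles for libraries 1 and 2 and triangles for 3 and 4. Ifngr2 is highest at a mean of 1727, Socs1 lowest at 31.5, and the spread of Ifngr1 covers that of Jak1.

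No difference between the genotypes in the balance of chains passed its test. Ratios were taken between normalized counts per kb of annotated exon, so they depend on the exon length assigned to each gene, and 7 ratios were compared. Ifnar1 to Ifnar2 was between 1.29 and 1.74 over the 8 libraries, with means of 1.602 ± 0.210 in Elmo1-/- and 1.54 ± 0.0966 in Elmo1+/- (SD, n = 4). Ifngr2 to Ifngr1 ran from 0.870 in Elmo1-/- mouse 1 to 2.15 in Elmo1+/- mouse 3, with means of 1.53 ± 0.515 and 1.57 ± 0.582. Jak1 to Jak2 was 1.65 ± 0.118 in Elmo1-/- and 1.79 ± 0.0399 in Elmo1+/-, the smallest exact permutation p of the 7 at 0.0571 before and 0.4 after Benjamini-Hochberg adjustment over them. The other ratios had exact permutation p between 0.457 and 0.943. The permutations cannot give less than 0.0286 before adjustment.

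For Ifngr1, Ifnar2, Jak1, Tyk2 and Socs3 the difference between library sets was larger in size than that between genotypes. On the log2 scale it was -0.090 against 0.014 for Tyk2 and -0.014 against -0.0084 for Socs3. For Ifngr1 the mean was 4570.0 in the 4 libraries numbered 1 and 2 and 2488 in those numbered 3 and 4, a log2 difference of -0.85. Ifnar2 was also higher in libraries 1 and 2, at 2270.4 against 1853 (-0.29 on the log2 scale), and Jak1 was lower, at 8277 against 8686 (0.070). Ifngr1, Ifnar2 and Jak1, 3 of the 9 genes, were those whose libraries 1 and 2 did not overlap libraries 3 and 4, against 34% of all tested genes. No test was made because the split was known from these data. The osteoclast markers moved the opposite way to Ifngr1 and Ifnar2, being lower in libraries 1 and 2, and the part of that split in the receptor values was not tested.

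Within the libraries numbered 1 and 2 the genotype difference of Ifngr1 was 0.010 on the log2 scale (n = 2 against 2), and within 3 and 4 it was 0.15. For Ifnar1 these differences were 0.12 and 0.090, and for Ifngr2 0.043 and 0.051, of the same sign in both sets. For Socs1 they were -0.0076 and 0.20, and for Ifnar2 0.12 and -0.014, of opposite sign.

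**Figure D4:**
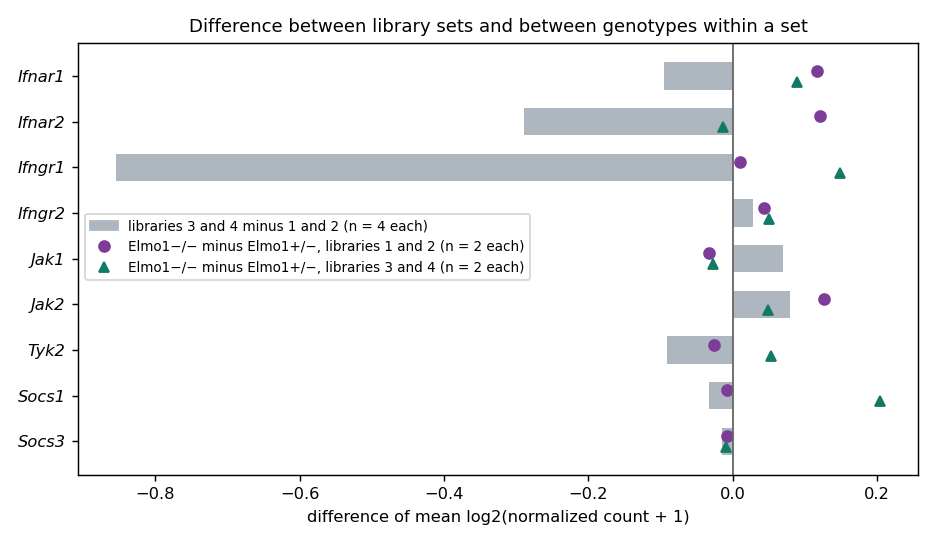
Differences of mean log2(normalized count + 1) (x axis) for the 9 tested genes, with bars for libraries 3 and 4 minus libraries 1 and 2 (n = 4 each), circles for Elmo1-/- minus Elmo1+/- within libraries 1 and 2 and triangles for the same within libraries 3 and 4 (n = 2 each). The bar of Ifngr1 reaches -0.85, while every genotype difference within a set lies between -0.032 and 0.20.

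Ifngr1 and Socs1 had the widest range over the libraries among the tested genes of the group. The genes whose values followed Ifngr1 most closely over the 8 libraries, by the root mean square difference of centred log2 values, were Igfbp4 (0.0771), Dhrs3 (0.0774) and H2afv (0.0834), where the median tested gene was at 0.495. Igfbp4, which encodes a binding protein of insulin-like growth factors, was highest in Elmo1-/- mouse 1 at 9679.7 and lowest in Elmo1+/- mouse 3 at 3862, the libraries that were also the highest and the lowest for Ifngr1. For Socs1 the nearest were Gpr137 (0.102), Rnf144a (0.104) and Slc39a7 (0.105), beside a median of 0.257.

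The other genes of the pathway gave no call either. Of 8 further genes, cytokine receptor chains with Jak3, 7 were tested, 0 were called and 5 had a log2 fold change above 0, with a median of 0.022. Ifnlr1, the chain specific to the receptor of type III interferons, had the largest estimate at 0.61 (SE 0.31, exact permutation p = 0.114), at a low level of 25.4 ± 5.08 normalized counts in Elmo1-/- and 17.0 ± 6.64 in Elmo1+/-. Csf2rb, the common beta chain of the GM-CSF, IL-3 and IL-5 receptors, had the highest count and a log2 fold change of 0.043, and it has a near-identical copy, Csf2rb2, with which it may share reads. Of 17 other negative regulators, all were tested, 0 were called and 8 lay above 0, with a median of -0.019, and without Elmo1-/- mouse 1 9 lay above 0 with a median of 0.010. Among them Usp18, which removes ISG15 and blocks the type I receptor, had the largest estimate, 0.37 (SE 0.24), and 0.11 without Elmo1-/- mouse 1. Ptpn6, the phosphatase SHP-1, was the highest at 14326 and 13902 and had a log2 fold change of 0.040.

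Downstream of the receptors, 0 STAT, IRF or interferon-stimulated genes were called by limma. Of 14 STAT and IRF genes, 9 lay above 0 with a median of 0.086, and without Elmo1-/- mouse 1 6 lay above 0 with a median of -0.039. Irf7, a factor that drives interferon genes, was at 25956, 6032, 4959.8 and 7253 in Elmo1-/- and at 9340.2, 9260.1, 4038 and 5759 in Elmo1+/- mice, and its log2 fold change of 0.37 (SE 0.51) became -0.16 without Elmo1-/- mouse 1.

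All 18 type I interferon-stimulated genes were tested and all 18 lay above 0, with a median log2 fold change of 0.43, 0 called and 5 at an unadjusted p under 0.05 in the higher direction, against 0.53% of all tested genes. Without Elmo1-/- mouse 1, a setting added after its values were seen, 16 of 18 lay above 0 with a median of 0.16. The count of 5 rested on single mice: leaving out Elmo1-/- mouse 4 gave 0, mouse 1 gave 2 and mouse 3 gave 13, and leaving out Elmo1+/- mouse 1 gave 1. It was 8 with DESeq2 and 10 with the library set as a term. Over all tested genes, in either direction, the count was 133 with all mice, 137 with DESeq2 and 411 with the library set. Without each of those 4 mice in turn, in the same order, it was 143, 330, 200 and 70. The median log2 fold change of the 18 genes was then 0.41, 0.16, 0.59 and 0.38, with 18, 16, 18 and 18 of them above 0. The mean centred log2 level of this list was 0.87 in Elmo1-/- mouse 1, while mice 2 to 4 of that genotype had 0.043, -0.29 and 0.19, beside -0.25, -0.052, -0.37 and -0.15 in the Elmo1+/- mice. The same measure over the 9 receptor, kinase and inhibitor genes was 0.14 in Elmo1-/- mouse 1 and between -0.14 and 0.085 in the other 7 libraries. Elmo1-/- mouse 1 thus had the highest level of the list and also the most Ifnb1 reads, 3. Elmo1-/- mice 2 and 3 and Elmo1+/- mouse 1, with 2 reads each, had list levels of 0.043, -0.29 and -0.25. Elmo1-/- mouse 4, with 0 reads, had the next highest list level, 0.19. Elmo1+/- mice 2 to 4, also with 0 reads, had -0.052, -0.37 and -0.15. No correlation was computed over so few reads. The same measure over the 12 osteoclast markers was lowest in Elmo1-/- mouse 1, at -1.08, and over the 8 neutrophil markers highest, at 0.97. The mean over the 2 tested plasmacytoid dendritic cell markers was also highest in that library, at 0.54 (0.24 in the next). Ccr9 was highest there, at 19.9 normalized counts, but Cox6a2 was highest in Elmo1+/- mouse 1, at 86.4 against 70.0. Cd4 at 1.18 and Cd79b at 0.85 were highest in Elmo1-/- mouse 1, as was the mean over the 6 macrophage markers at 0.27. Among those 6, Adgre1 was highest in Elmo1+/- mouse 1 and Cx3cr1 in Elmo1-/- mouse 2. The part of any of these cells in the interferon values was not tested.

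Of 16 interferon gamma-stimulated genes, 14 were tested, 13 lay above 0 with a median of 0.36 (0.26 without Elmo1-/- mouse 1), 0 were called and 4 had an unadjusted p under 0.05, all in the higher direction, against 0.53% of all tested genes. That count was 1 without Elmo1-/- mouse 4 or Elmo1+/- mouse 1, 2 without Elmo1-/- mouse 1 or 2 or Elmo1+/- mouse 2 or 3, and 8 without Elmo1-/- mouse 3. Over all tested genes, in either direction, the count without 1 mouse lay between 70 (Elmo1+/- mouse 1) and 330 (Elmo1-/- mouse 1). Cxcl10, a chemokine induced by both interferon types, had the largest estimate at 0.75 (SE 0.21, limma adjusted p = 1.00, exact permutation p = 0.0571), with 829, 971, 659 and 999.6 in Elmo1-/- and 388, 443, 512 and 755 in Elmo1+/- mice 1 to 4. Several genes of both lists respond to either interferon, so the lists do not separate the 2 receptors. Of 6 STAT3 target genes, which share the factor that SOCS3 restrains, 1 lay above 0, with a median of -0.025 (-0.15 without Elmo1-/- mouse 1) and 0 at an unadjusted p under 0.05. The genes of these lists were chosen with earlier results of these data known, so their directions are no independent evidence.

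**Figure D5:**
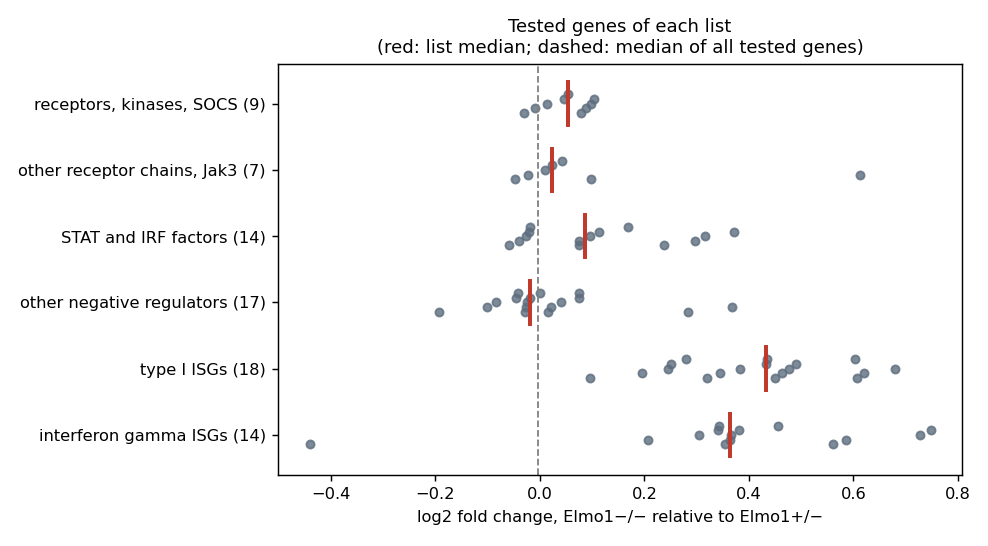
The log2 fold change (x axis, Elmo1-/- relative to Elmo1+/-) of each tested gene, 1 point per gene, in 6 lists whose number of tested genes stands in brackets, with the list median in red and the median of all tested genes as a dashed line. The receptor, kinase and inhibitor genes lie between -0.030 and 0.10, while the medians of the type I and gamma-stimulated genes are at 0.43 and 0.36.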

How the data were processed

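RNAseq was analysed from the osteoclasts of 4 Elmo1-/- and 4 Elmo1+/- mice. Per the labels and the methods of the study, the authors prepared TruSeq mRNA libraries, and the submitters' processing notes name FastQC, STAR, featureCounts and DESeq2 without versions, while neither the genome build nor the strand setting is stated. What the authors deposited is a normalized signal: per library, read counts over a common size factor. The deposited table also holds the authors' own comparison (log2 fold change, its error, a statistic, p and adjusted p), which was not used. In multiples of the smallest step of its library, 100% of values were whole, with a tolerance of 0.01 read. Symbols and positions came from GENCODE M21 (GRCm38), where 46005 identifiers matched and 512 did not, and upstream sequences from the RefSeq promoter table (GRCm38.p6), where all 10 genes matched. No libraries of a genotype were copies (chi-square per gene between 8.72 and 190).

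The test was limma 3.58.1 in R 4.3.3 (trend and robust) on log2(normalized count + 1) for genes at 10 or more in at least 4 libraries, adjusted over all 14139 genes, with exact two-sided permutation tests over mice for single values. Alternatives were edgeR 4.0.16 and DESeq2 1.42.0 on the recovered reads, rescaling by TMM and to equal totals, pseudocounts of 0.5 and 8, no filter or a minimum of 50, omission of each mouse, the replicate number as a block, and the library set as a term. Deviations from genotype means correlated between 0.156 and 0.703 in the 4 same-numbered pairs, over 0.1 in each, so the numbers were taken to pair the libraries, although the labels do not say what they stand for and different numbers of the same set correlated at up to 0.691. The 10 genes and all lists were chosen with earlier results of these data known. From the lists the text names the gene with the largest change, the highest gene, genes whose genotypes do not overlap and ligands with a read, with 1 result not reported here, and, as absent or untested, markers named after their values were seen. The scripts were tested on simulated data. Intervals on reads cover counting error only.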

Additional observations from a re-analysis of the deposited data

Results flagged for a closer look

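A value was listed here where the highest or lowest of the 4 mice of a genotype stood apart from the other 3, by the gap to the nearest divided by the whole range. Of 70 groups of 4 examined, 8 passed the critical value, where chance gives about 1 in 20, or 3.5. Among the interferon receptor, ligand, kinase and SOCS genes these were Ifnb1 in Elmo1+/- (gap share 1, since only mouse 1 had reads), Ifngr2 in Elmo1-/- (0.859) and Ifngr2 in Elmo1+/- (0.941). Ifngr2 was lowest in mouse 2 of both genotypes, at 6341 and 6242 normalized counts. Elmo1-/- mouse 1 stood apart for Irf7 (0.891, at 25956 normalized counts), Bst2 (0.879, at 24357), Il4ra (0.844, at 6438) and Osm (0.894, at 359). Elmo1-/- mouse 2 stood apart for Cx3cr1 (0.891, at 1406).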

How the results depend on the processing

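Over 18 alternative settings, 0 of the 9 tested genes were called in any. Using no filter, a minimum of 50, the replicate block or the library set as a term could not change the log2 fold changes of these genes. Of 162 alternative log2 fold changes, counting those fixed ones, 152 kept their sign and 10 changed it, all of them with 1 mouse left out. Their ranges over the 8 fits without 1 mouse were -0.051 to 0.14 for Ifnar2, -0.18 to 0.26 for Ifngr1, -0.022 to 0.048 for Tyk2, -0.0054 to 0.19 for Socs1 and -0.052 to 0.040 for Socs3, and the cause was not tested. The number of the 9 genes whose genotypes did not overlap, 0 with all mice, was between 0 and 1 without 1 mouse: it was 1 without Elmo1-/- mouse 2 (Ifngr2) or mouse 3 (Ifnar1). Over all genes, 1 was called, Elmo1, and 2 with the Wald test of DESeq2, and between 1 and 2 without 1 mouse, the second being Gpr137b-ps. With the replicate block, 1 gene was called, the smallest unadjusted p of the 9 genes was 0.119 and the smallest adjusted p 1.00, so the block changed no call. The number of genes at an unadjusted p under 0.05 was 133 in the fit reported, 389 with the replicate block, 411 with the library set as a term, 478 without a filter and between 70 and 330 without 1 mouse, with 0 of the 9 genes among them in each. Rescaling to equal totals shifted the median log2 fold change of all genes by 0.0064 and moved the set difference of Jak1 from 0.070 to 0.11. Depth limits the ligands most, since 3 reads are 0.0734 to 0.144 CPM, followed by Socs1 with 65 to 135 reads a library.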
